A study of Rattus norvegicus with 6 samples.

Results

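The collagen chain genes are the genes whose symbol has the form Col, a type number, the letter a and a chain number. Of the 17525 genes in the expression table, 41 have such a symbol, and all 41 were kept whatever their level. The symbol alone decided which genes belong, whatever their measured values. They were measured in granulosa cells cultured from rat (Rattus norvegicus) ovaries, the somatic cells that line the follicle and nurse the oocyte. The cells came from SD rats aged 21 days that were given 60 IU of PMSG, a gonadotropin that makes follicles grow, and whose ovaries were taken 48 h later. The titles name 6 libraries, 3 of an ATR group and 3 of a Control group. Atrazine, a herbicide, is the exposure that the title of the series names, but the labels do not spell out ATR and give no dose, length or route of exposure. The 3 libraries analysed here, ATR 1, ATR 2 and ATR 3, are all of the ATR group. Libraries of the Control group were not analysed here, and nothing below measures what an exposure did. Where 3 values are given in a row, they are those of ATR 1, ATR 2 and ATR 3 in that order.

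Collagens are the main structural proteins of the extracellular matrix. Each is built from alpha chains that wind around each other into a triple helix, and many types need chains from more than one gene. Fibril-forming collagens give connective tissue its tensile strength and accumulate in fibrosis. Collagen IV forms the sheet of basement membranes, collagen VIII forms short-chain networks, collagen VI forms beaded filaments around cells, and the fibril-associated collagens decorate the surface of fibrils. In the ovary, basement membrane collagen surrounds the granulosa cell layer of the follicle, while fibrillar collagen lies mainly in the theca and stroma.

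Levels are TPM, the authors' expression value scaled for transcript length and library size, so they can be set side by side between genes. Errors are SDs with n = 3. Whether each library had its own animals or culture is not stated in the labels, so the spread, and any p-value, may be technical. Between 18677212 and 19170552 reads per library were assigned to genes. To test for spread between libraries, a gene's reads were set against scaled library sizes in a chi-square test, over all genes that had at least 30 reads in sum. Benjamini-Hochberg adjustment ran over all of those genes, with a threshold of 0.05. This test compares the libraries and not conditions, and 23.2% of the 13309 genes tested passed it. Of the labelled cell type's markers, Fshr stood at 7.38, 5.25 and 4.77 TPM and Foxl2 at 63.6, 53.8 and 48.0 TPM, while Cyp19a1 had at most 0.0900 TPM and Amh at most 0.140 TPM. Of the 10 granulosa cell markers looked at, 8 had a mean of at least 1 TPM, beside 71.4% of all genes. Of the 10 surface epithelium markers 7 did so, led by Upk3b at 1513, 1316 and 1379 TPM. Both counts are near the share of all genes, so they do not mark a cell type. The endothelial markers summed to 3.90 to 4.53 TPM per library, and the leukocyte markers to 92.8 to 118 TPM. All 9 smooth muscle and pericyte markers measured reached 1 TPM, led by Tagln at 11357, 10751 and 10563 TPM. By mean TPM, Tagln ranked 1 and Acta2 ranked 6 among all genes. Of the 6 theca cell markers 3 reached 1 TPM.

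Collagen expression was concentrated in a few chains. Of the 41 genes, 26 had a mean of at least 1 TPM, 18 of at least 10 TPM, 11 of at least 100 TPM and 4 of at least 1000 TPM. Over all genes of the table, 71.4% reached 1 TPM, 10.7% reached 100 TPM and 0.879% reached 1000 TPM. The median collagen gene stood at 5.39 TPM and the median of all genes at 10.1 TPM. Together the 41 genes held 0.900%, 0.969% and 0.966% of all TPM. Of the assigned reads, which are not divided by transcript length, they held 2.47%, 2.67% and 2.66%. The 4 most abundant chains, Col1a1, Col8a1, Col11a1 and Col4a1, held 67.9%, 62.7% and 65.5% of collagen TPM.

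**Figure D1:**
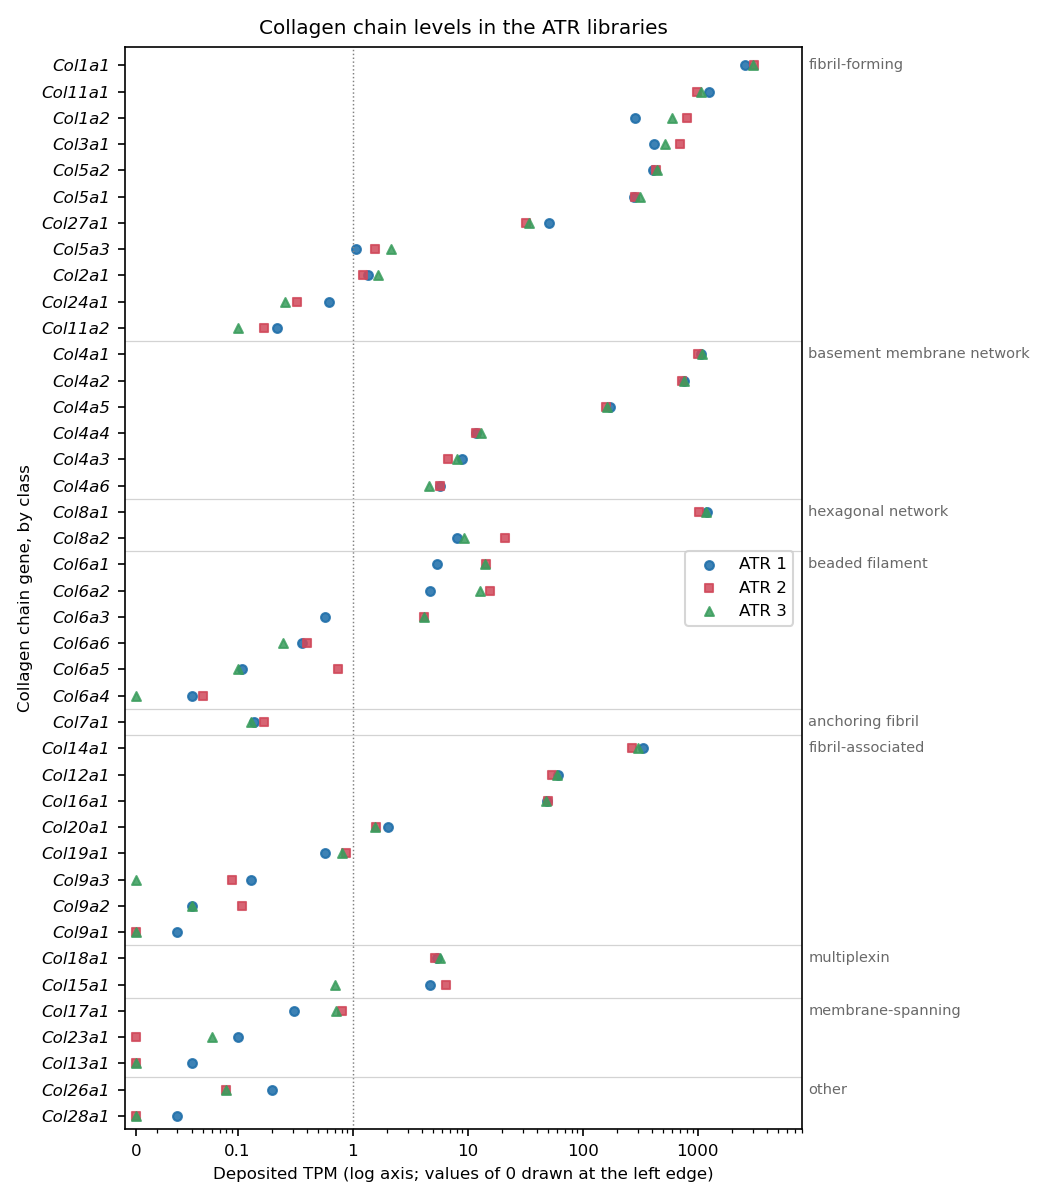
Deposited TPM of all 41 collagen chain genes in the 3 ATR libraries, on a log axis with genes ordered by class and mean and values of 0 at the left edge; the dotted line marks 1 TPM. Col1a1, Col8a1, Col11a1 and Col4a1 lie near or above 1000 TPM, while 15 genes lie below 1 TPM on average.

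By class, the 11 fibril-forming chains held most of the collagen TPM, at 58.9%, 65.0% and 62.0%. The 6 basement membrane chains held 22.5%, 19.8% and 21.1%. The hexagonal network class, with Col8a1 and Col8a2 as its measured members, held 13.5%, 10.8% and 12.2%, nearly all of it Col8a1. The 8 fibril-associated chains held 4.95%, 3.86% and 4.30%. The 6 beaded filament chains held 0.124%, 0.366% and 0.327%. ATR 1 thus had the smallest fibril-forming and beaded filament parts and the largest parts of the basement membrane, hexagonal network and fibril-associated classes.

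**Figure D2:**
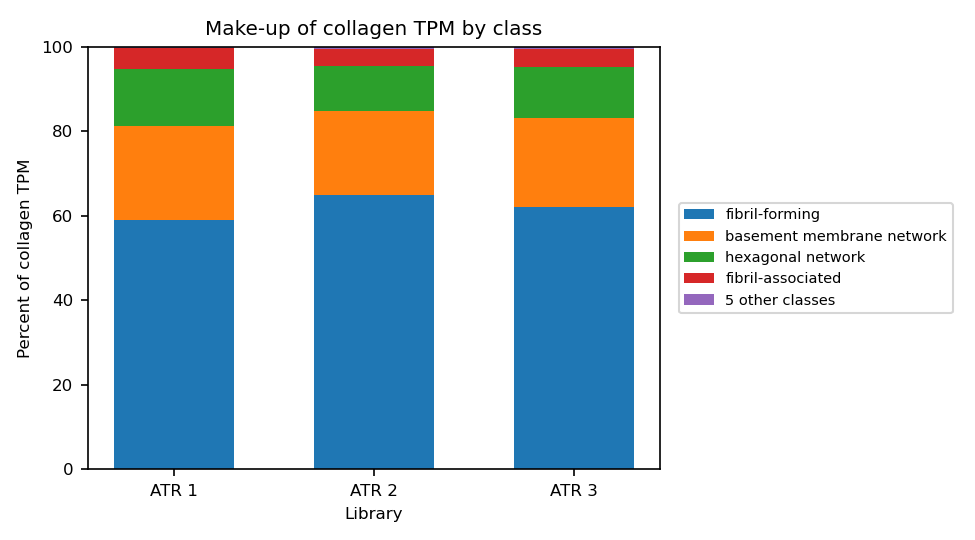
Percent of collagen TPM held by each class in the 3 ATR libraries, as stacked bars that sum to 100. The fibril-forming part is 58.9% in ATR 1 and 65.0% in ATR 2, and the 5 classes drawn together at the top hold less than 1% in each library.

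Col1a1, the main chain of collagen I and of most scar tissue, was the most abundant collagen, at 2596, 3062 and 2996 TPM. It ranked 23 among all genes by mean TPM, at 2885 ± 252 TPM (SD, n = 3). ATR 1 was the low library, and the read ratio of ATR 2 to ATR 1 was 1.21 (95% interval 1.20 to 1.21). Such intervals are exact and cover counting error only, and the libraries set against each other are always the highest and the lowest of that gene. Col1a2, the partner chain of collagen I, varied more, at 287, 801 and 601 TPM. Its ATR 2 to ATR 1 read ratio was 2.85 (2.79 to 2.91), and both collagen I chains had their lowest level in ATR 1. The counts of Col1a2 are not whole numbers, so part of its reads may have been divided with another row of the table. The row NEWGENE_621351 had fractional counts too and the same order of libraries, at 92.6, 251 and 163 TPM. Its identifier was not found in the RefSeq gene table. Col3a1, the chain of collagen III that co-assembles with collagen I in soft tissue, stood at 418, 704 and 523 TPM. It too was lowest in ATR 1 and highest in ATR 2, with a read ratio of 1.72 (1.69 to 1.75).

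Col11a1, a minor fibril chain best known from cartilage, stood at 1249, 980 and 1069 TPM and ranked 137 among all genes. Its order was the reverse of that of the collagen I and III chains, with ATR 1 highest, ATR 2 lowest and a read ratio of 1.25 (1.23 to 1.26). Col2a1, the cartilage collagen that Col11a1 accompanies there, stood at 1.37, 1.22 and 1.65 TPM and did not pass the test (adjusted p = 0.544, chi-square test). Col11a2 had at most 0.220 TPM and did not pass (adjusted p = 0.626). Col5a2 and Col5a1, the collagen V chains that set the diameter of collagen I fibrils, were level between libraries by comparison. Col5a2 stood at 410, 432 and 445 TPM and Col5a1 at 279, 287 and 316 TPM. Both passed the test with small ratios of ATR 3 to ATR 1, of 1.12 (1.10 to 1.14) and 1.13 (1.11 to 1.15). Col5a3, the third collagen V chain, was far lower at 1.06, 1.55 and 2.16 TPM. Its call was lost without ATR 1 and without ATR 3, at adjusted p = 0.104 and 0.0742 in the chi-square test. Col27a1, a fibril chain of cartilage and developing tissue, stood at 50.7, 32.1 and 33.9 TPM and was high in ATR 1 alone, by 1.51 (1.43 to 1.60) over ATR 2. Without ATR 1 the other libraries did not differ in the test (adjusted p = 0.755). Of the 11 fibril-forming chains 8 passed the test, beside 23.2% of all genes and 39.9% of those with a mean of at least 1000 reads. All of the 8 but Col5a3 had such a mean. Of the 8, 6 were lowest in ATR 1, beside 39.1% of all genes that passed, the exceptions being Col11a1 and Col27a1. Col24a1, at 0.620, 0.330 and 0.260 TPM, did not pass (adjusted p = 0.0655).

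The collagen IV genes lie in head-to-head pairs, and their promoter windows are shown because the chains of one pair stood in a small, steady ratio while those of another differed many times over. Each window runs from 250 bases before to 50 bases after the RefSeq gene start on build GRCr8 and is printed 5′ to 3′ on the gene's strand. Capitals mark matches to CCAAT (the CCAAT box), GGGCGG (the GC box) or TATAAA (the TATA box) on either strand, which are matches of letters and not tested binding sites. The windows are those of Col4a1 at chr16:84885347-84885646 (plus strand), Col4a2 at chr16:84885471-84885770 (minus strand), Col4a5 at chrX:109907109-109907408 (plus strand) and Col4a6 at chrX:109905895-109906194 (minus strand).
Col4a1: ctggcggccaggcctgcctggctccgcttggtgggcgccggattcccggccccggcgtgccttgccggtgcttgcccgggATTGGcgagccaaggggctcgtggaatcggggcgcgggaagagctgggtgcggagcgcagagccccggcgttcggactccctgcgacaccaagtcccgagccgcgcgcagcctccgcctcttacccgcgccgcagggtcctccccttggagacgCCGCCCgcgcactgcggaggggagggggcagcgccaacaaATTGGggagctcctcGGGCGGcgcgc
Col4a2: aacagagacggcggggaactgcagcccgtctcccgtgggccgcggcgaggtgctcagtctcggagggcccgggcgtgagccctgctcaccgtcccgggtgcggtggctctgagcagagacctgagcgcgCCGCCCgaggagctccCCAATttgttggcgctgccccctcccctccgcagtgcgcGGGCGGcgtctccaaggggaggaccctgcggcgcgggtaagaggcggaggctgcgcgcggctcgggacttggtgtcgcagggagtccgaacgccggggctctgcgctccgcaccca
Col4a5: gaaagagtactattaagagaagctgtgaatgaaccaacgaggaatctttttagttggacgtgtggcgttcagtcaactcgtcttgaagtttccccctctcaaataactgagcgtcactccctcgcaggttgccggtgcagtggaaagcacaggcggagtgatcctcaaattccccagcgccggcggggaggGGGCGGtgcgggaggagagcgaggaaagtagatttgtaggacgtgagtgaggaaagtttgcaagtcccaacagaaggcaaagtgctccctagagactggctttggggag
Col4a6: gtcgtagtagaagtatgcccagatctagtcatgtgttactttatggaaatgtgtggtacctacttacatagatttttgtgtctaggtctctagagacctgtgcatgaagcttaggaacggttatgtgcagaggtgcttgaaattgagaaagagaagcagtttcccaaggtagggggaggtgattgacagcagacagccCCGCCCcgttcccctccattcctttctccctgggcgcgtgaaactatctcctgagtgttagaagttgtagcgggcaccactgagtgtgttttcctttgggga
The starts of Col4a1 and Col4a2 lie 77 bases apart, so the windows overlap by 176 bases. The Col4a1 window holds 2 CCAAT box and 2 GC box matches. Both GC box matches and 1 of the CCAAT box matches are also in the Col4a2 window, at the same places. The starts of Col4a5 and Col4a6 lie 1415 bases apart with no overlap, and each window holds 1 GC box match. The starts of Col4a3 and Col4a4 lie 413 bases apart.

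Col4a1 and Col4a2, which together form the collagen IV of nearly all basement membranes, were the most abundant of the class. Col4a1 stood at 1063, 1013 and 1088 TPM and Col4a2 at 759, 723 and 759 TPM. Their highest to lowest read ratios of 1.08 (1.07 to 1.09) and 1.05 (1.04 to 1.07) still passed the test, with 42371 to 66243 reads behind each value. Col4a5, a chain of specialised basement membranes, stood at 174, 159 and 163 TPM, with a ratio of ATR 1 to ATR 2 of 1.07 (1.04 to 1.10). Its call was lost without ATR 1 and without ATR 2, at adjusted p = 0.0946 and 0.0763 in the chi-square test. Its neighbour Col4a6 was much lower, at 5.80, 5.75 and 4.61 TPM, and did not pass (adjusted p = 0.104). The other specialised chains were low too, with Col4a3 at 9.01, 6.74 and 8.15 TPM and Col4a4 at 11.8, 11.9 and 13.0 TPM. Col4a3 passed (adjusted p = 0.00575), but not without ATR 1 (0.0924) or without ATR 2 (0.460), and its counts are not whole. Col4a4 did not pass (adjusted p = 0.733). All 4 basement membrane chains that passed had their lowest level in ATR 2, as did 36.5% of all genes that passed.

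The order of Col4a3 and Col4a4 depends on the transcript model. Reads per TPM rise with the length of the model, and Col4a4 had 0.534 CPM (reads scaled to library size) per TPM. The other 25 collagen genes at 1 TPM or more had 1.23 to 6.03, with a median of 2.80. In reads Col4a4 had 118, 120 and 134, below Col4a3 with 448.4, 337.26 and 410.14, although its TPM was the higher in each library. The ratio of Col4a3 to Col4a4 was 0.652 ± 0.102 in TPM and 3.80, 2.81 and 3.06 in reads. Which of these chains was more abundant was therefore not settled here.

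Col8a1, a short-chain network collagen of vessel walls and of the cornea, stood at 1203, 1025 and 1170 TPM and ranked 135 among all genes. ATR 2 was the low library, by a ratio of 1.15 (1.13 to 1.17), and without ATR 2 the call was lost (adjusted p = 0.835). Its partner chain Col8a2 had 8.05, 21.2 and 9.27 TPM, with ATR 2 as the high library. The read ratio of ATR 2 to ATR 1 was 2.69 (2.35 to 3.08), and Col8a2 did not pass without ATR 2 (adjusted p = 0.140). The chains of this collagen thus went opposite ways in ATR 2. In the smooth muscle and pericyte marker list, Des stood at 7.22, 20.4 and 7.69 TPM, with the same high library as Col8a2, and Pdgfrb at 9.40, 17.4 and 12.2 TPM. These genes are named because their high library is that of Col8a2. Of the 9 members 7 passed the test, beside the 23.2% of all genes. Of these, 3 were highest in ATR 2 and 4 (Acta2, Tagln, Myh11 and Mcam) in ATR 1, where Col8a2 was lowest. Among all genes that passed, 32.0% were highest in ATR 2 and 35.6% in ATR 1. The list as a whole summed to 17708, 16537 and 16367 TPM. No measured member of it was at 0 in all libraries. The part of such cells in the level of Col8a2 was not tested. The promoter windows of both genes are shown because the chains differed so much, Col8a1 at chr11:56246532-56246831 and Col8a2 at chr5:143870519-143870818, both on the plus strand.
Col8a1: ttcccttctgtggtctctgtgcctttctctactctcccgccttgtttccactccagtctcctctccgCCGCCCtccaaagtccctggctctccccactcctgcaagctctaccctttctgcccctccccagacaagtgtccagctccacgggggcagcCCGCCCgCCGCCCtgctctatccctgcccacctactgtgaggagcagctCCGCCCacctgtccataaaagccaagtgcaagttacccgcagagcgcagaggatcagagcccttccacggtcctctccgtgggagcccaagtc
Col8a2: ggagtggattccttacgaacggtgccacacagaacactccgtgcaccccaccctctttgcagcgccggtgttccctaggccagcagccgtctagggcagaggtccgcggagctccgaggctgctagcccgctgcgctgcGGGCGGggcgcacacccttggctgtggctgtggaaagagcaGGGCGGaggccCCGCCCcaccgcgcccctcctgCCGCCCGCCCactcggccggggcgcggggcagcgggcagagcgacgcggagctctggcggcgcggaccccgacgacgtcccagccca
The capitals, which mark the same motifs as above, show 4 GC box matches for Col8a1 and 5 for Col8a2, with neither CCAAT nor TATA box matches in these windows.

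The beaded filament collagens were low and uneven. Col6a1 and Col6a2, the shorter chains of collagen VI, stood at 5.36, 14.4 and 14.2 TPM and at 4.70, 15.6 and 12.9 TPM. The longer Col6a3 chain, which joins them in the assembled protein, had 0.570, 4.20 and 4.16 TPM from 47, 368 and 385 reads. All of them were low in ATR 1. The ratios of the highest library to ATR 1 were 2.75 (2.32 to 3.25) for Col6a1, 3.43 (2.86 to 4.14) for Col6a2 and 8.20 (6.04 to 11.3) for Col6a3. Without ATR 1, the calls of Col6a1 and Col6a3 were lost at adjusted p = 0.956 and 0.870 in the chi-square test, whereas that of Col6a2 was not. Col6a5, an alternative chain of collagen VI, had 9, 63.61 and 8.28 estimated reads and so was high in ATR 2. Col6a6 did not pass (adjusted p = 0.472), and Col6a4 had too few reads to be tested.

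Several markers of stromal fibroblasts, cells rich in collagens I, III and VI, were also lowest in ATR 1. Thy1 stood at 23.2, 104 and 82.7 TPM, Prrx1 at 12.0, 47.0 and 29.2 TPM and Pdgfra at 1.36, 5.27 and 3.67 TPM. Of the 9 measured markers of that list 8 were tested and 7 passed, beside the 23.2% of all genes. Of these 7, 6 were lowest in ATR 1, beside 39.1% of all genes that passed. The whole list summed to 414, 515 and 487 TPM. Its members Ogn (204, 181 and 179 TPM) and Dcn (25.3, 22.8 and 21.2 TPM) had their highest values in ATR 1, and Tcf21 had 0, 4 and 1 reads. The granulosa cell markers summed to 2978, 2703 and 2597 TPM, of which Gja1 alone gave 2036, 1863 and 1821 TPM. Of 8 tested 5 passed, beside the 23.2% of all genes. All 5 were lowest in ATR 3, beside 24.4% of all genes that passed. The part of stromal cells in the collagen differences was not tested. In bulk RNA, fewer cells of a type and less RNA per cell cannot be told apart.

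The fibril-associated chains were led by Col14a1, which binds collagen I fibrils and is typical of fibroblasts, at 333, 267 and 305 TPM. Unlike Col1a2 and Col3a1 it was highest in ATR 1 and lowest in ATR 2, with a read ratio of 1.22 (1.20 to 1.25). Col12a1, a stress-responsive relative, stood at 61.3, 54.1 and 59.4 TPM and passed the test (adjusted p = 5.94e-09), but not without ATR 2 (0.920). Col16a1, at 48.6, 50.3 and 48.1 TPM, had one of the smallest spreads of all collagens and did not pass (adjusted p = 0.327). Col20a1 had 2.01, 1.59 and 1.56 TPM and did not pass (adjusted p = 0.323), and neither did Col19a1 at 0.570 to 0.870 TPM (adjusted p = 0.0955). The collagen IX genes Col9a1, Col9a2 and Col9a3, which coat cartilage fibrils, had at most 3 reads in any library.

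Of the multiplexins, which carry an angiogenesis inhibitor at their end, Col18a1 was even at 5.42, 5.17 and 5.78 TPM (adjusted p = 0.582). Col15a1 was not, at 4.70, 6.47 and 0.700 TPM from 219.25, 303.58 and 33.73 estimated reads. ATR 3 was the low library here, and the read ratio of ATR 2 to ATR 3 was 9.08 (6.36 to 13.4), larger than that of any other collagen gene averaging 5 CPM or more. The counts of Col15a1 are not whole numbers, so part of its reads may have been divided with another row. Of the membrane-spanning chains, Col17a1, a hemidesmosome protein of epithelia, had 0.310, 0.810 and 0.720 TPM. It passed the test (adjusted p = 0.0180), but not without ATR 1 (0.826). Col13a1 and Col23a1 had at most 2.14 estimated reads in any library. Col7a1, the anchoring fibril of skin, had 0.130 to 0.170 TPM (adjusted p = 0.886), and Col26a1 and Col28a1 had at most 5 and 1 reads. At this depth, levels of a few reads cannot be ranked. In all, 8 of the 41 genes had 5 or fewer reads in every library and were not tested.

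Of the 33 collagen genes with enough reads, 22 passed the chi-square test, beside 23.2% of the 13309 genes tested. Among genes with a mean of at least 1000 reads, 13 of 14 collagens passed, beside 39.9% of 4030 genes. Without ATR 1, 15 of 30 collagens passed, beside 11.9% of genes, without ATR 2 16 of 30 beside 14.6%, and without ATR 3 21 of 31 beside 17.3%. Of the 22 that passed, 11 were lowest in ATR 1 (9.07% of all genes tested were called and lowest there), 9 in ATR 2 (8.48%) and 2 in ATR 3 (5.65%). The highest library was ATR 1 for 7 (8.26%), ATR 2 for 9 (7.42%) and ATR 3 for 6 (7.51%).

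**Figure D3:**
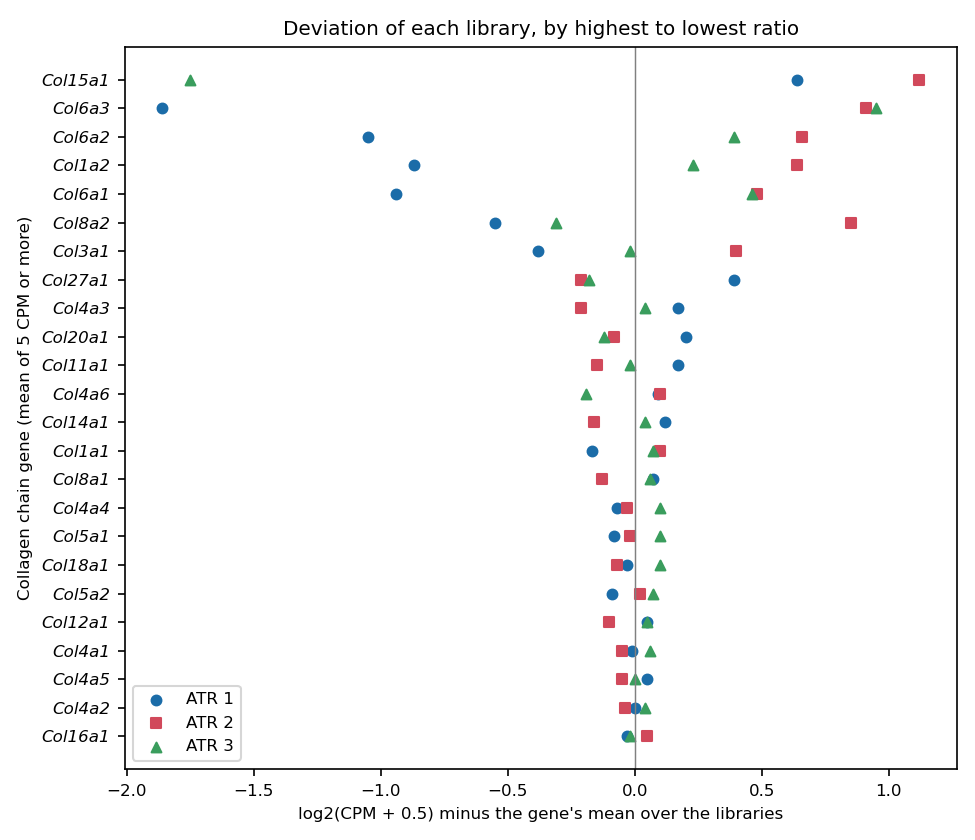
Deviation of log2(CPM + 0.5) in each ATR library from the gene's mean, for the 24 collagen genes that average 5 CPM or more, ordered by the ratio of highest to lowest library. ATR 1 lies far to the left for Col6a3, Col6a2, Col6a1 and Col1a2, ATR 3 lies far to the left for Col15a1, and the genes from Col4a6 down lie within 0.2 of their mean.

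Among the 24 collagens that averaged 5 CPM or more, the median ratio of highest to lowest library was 1.23, beside 1.10 over all 10506 such genes. A ratio of 2 or more was found in 6 of the 24, beside 1.24% of all genes, and one of 1.5 or more in 8, beside 3.11%. The 6 were Col15a1, Col6a3, Col6a2, Col1a2, Col6a1 and Col8a2, and the others past 1.5 were Col3a1 and Col27a1. Of these 6, all but Col15a1 were lowest in ATR 1, beside 39.1% of all genes that passed the chi-square test. The share lowest in ATR 1 among all genes past 2-fold was not taken. Without ATR 1 the number of collagens past 2-fold fell to 2 (Col15a1 and Col8a2) of 25, beside 0.514% of genes. Over all genes it fell as well, from 130 to 54, so the fall was not particular to the collagens. Leaving out a library can by itself lower a ratio of highest to lowest.

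**Figure D4:**
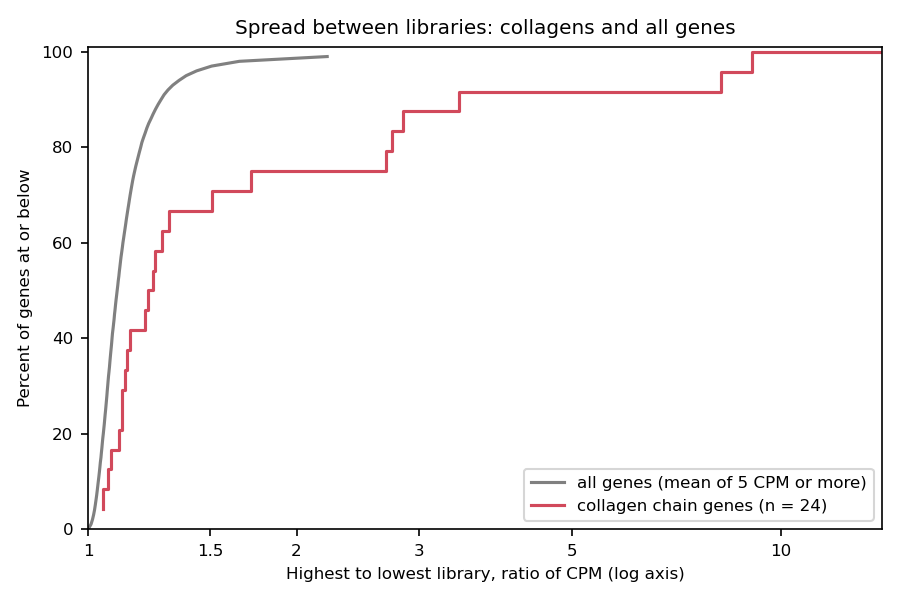
Cumulative percent of genes against the ratio of highest to lowest ATR library in CPM, on a log axis, for 24 collagen genes and for all genes averaging 5 CPM or more (drawn to the 99th percentile). The collagen curve lies to the right of that of all genes, with medians of 1.23 and 1.10 and with 6 collagens at 2 or more.

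Ratios between the chains of one collagen type were taken within each library. Col4a1 to Col4a2 was 1.40, 1.40 and 1.43, the steadiest of the pairs. Col5a1 to Col5a2 followed at 0.680, 0.665 and 0.711, and Col6a1 to Col6a2 at 1.14, 0.921 and 1.10. The collagen VI pair thus turned over in ATR 2, where Col6a2 was the higher chain, and its highest ratio was 1.24 times its lowest. Col4a5 exceeded Col4a6 by 27.6 to 35.5 times, with starts 1415 bases apart. For the head-to-head pair of Col4a3 and Col4a4 the order of levels was not settled, as given above. Col8a1 exceeded Col8a2 by 149, 48.4 and 126 times in TPM, and by 90.5, 29.3 and 76.2 times in reads, which are not divided by length. Col6a3 to Col6a1 was 0.106 in ATR 1 and 0.292 and 0.294 in the others in TPM, and 0.242, 0.702 and 0.731 in reads. In both units ATR 2 had the lowest ratio of the collagen VIII chains and ATR 1 the lowest of Col6a3 to Col6a1. Col1a1 to Col1a2 was 9.03, 3.82 and 4.99, and 6.83, 2.91 and 3.92 when the row NEWGENE_621351 was added to Col1a2. The highest of these ratios was 2.36 times the lowest without that row and 2.35 times with it. Col11a1 exceeded Col2a1 by 912, 803 and 648 times, and Col1a1 exceeded Col3a1 by 6.21, 4.35 and 5.73 times.

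**Figure D5:**
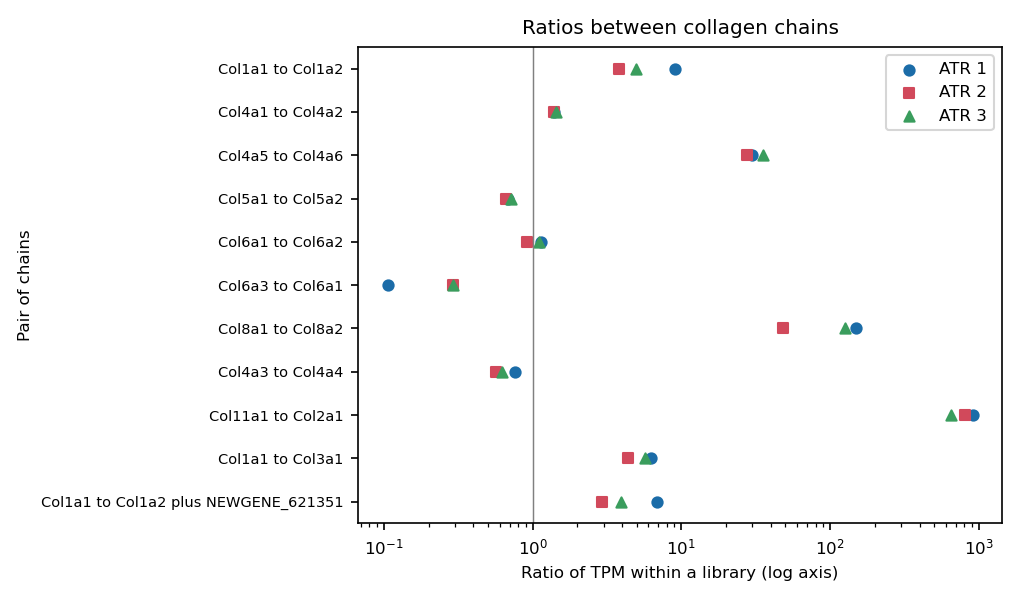
Ratio of TPM between collagen chains within each ATR library, on a log axis, with a line at 1. Points of the 3 libraries coincide for Col4a1 to Col4a2 and lie apart for Col1a1 to Col1a2, Col6a3 to Col6a1 and Col8a1 to Col8a2.

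Of the 41 genes, 34 had an entry in the RefSeq promoter table, with 37 windows because Col24a1 and Col6a5 have several starts. A GC box match was present in 20 of the 37 windows (19 of the 34 genes), beside 33.1% of all 33469 windows of the same length. A CCAAT box match was present in 11 windows (10 genes), beside 37.5% of all windows, and a TATA box match in 3 (3 genes), beside 14.2%. Those 3 genes were Col1a2, Col17a1 and Col13a1, of which Col1a2 alone reached 1 TPM. Col1a1, Col3a1, Col14a1, Col12a1, Col6a2, Col2a1 and Col9a3 had no entry, so they were not searched for matches. The Col1a2 window, at chr4:33518307-33518606 on the plus strand, is shown because Col1a2 is the abundant chain with the largest spread. Its TATA box match begins at -170 from the RefSeq start and its CCAAT box match, which reads on the other strand, at -221. From the RefSeq start on, the window reads atgctcagctttgtg, which begins with the letters of a start codon (atg). The RefSeq start may therefore be that of translation. Where transcription starts was not tested, so these positions may not be distances from it.
Col1a2: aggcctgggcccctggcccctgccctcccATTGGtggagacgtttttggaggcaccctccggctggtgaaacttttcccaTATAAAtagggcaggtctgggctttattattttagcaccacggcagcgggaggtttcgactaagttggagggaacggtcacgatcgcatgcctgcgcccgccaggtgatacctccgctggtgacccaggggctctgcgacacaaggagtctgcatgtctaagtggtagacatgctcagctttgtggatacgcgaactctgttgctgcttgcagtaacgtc
These are descriptions of letters in fixed windows, and no binding was measured.

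The enzymes and chaperones that hydroxylate, fold, secrete and cross-link collagen ranged from traces to some of the most abundant transcripts. At least 1 TPM was reached by 30 of their 32 measured genes, beside 71.4% of all genes, and 100 TPM by 15, beside 10.7%. The median was 95.7 TPM, beside 10.1 TPM over all genes, and the lowest were Colgalt2, a collagen galactosyltransferase, and Tll2, a procollagen peptidase, below 1 TPM. The highest were Serpinh1, the collagen chaperone, at 2048, 2106 and 2113 TPM, the lysyl hydroxylase Plod2 at 1424, 1247 and 1307 TPM, and P4hb, a subunit of prolyl hydroxylase, at 1180, 1129 and 1158 TPM. Of 30 tested, 12 passed, beside 23.2% of all genes and 39.9% of those with a mean of at least 1000 reads. Most of the 30 had such a mean, and 12 of 30 is near the latter share. Of the 12, 3 were lowest in ATR 1, beside 39.1% of all genes that passed, and 7 in ATR 2, beside 36.5%. The largest ratio among them was that of Adamts14, a procollagen peptidase, at 0.890, 2.27 and 1.51 TPM with an ATR 2 to ATR 1 ratio of 2.48 (1.71 to 3.66). At 5 CPM or more, the median ratio of highest to lowest library was 1.08 for 27 genes of the list, beside 1.23 for the collagens and 1.10 over all genes.

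Of the 10 collagen receptor genes, 7 reached 1 TPM, beside 71.4% of all genes. All 7 tested passed, beside 23.2% of all genes and 39.9% of those with a mean of at least 1000 reads, as all 7 had. Itgb1, the beta subunit shared by the collagen-binding integrins, stood at 1180, 1083 and 1145 TPM. The discoidin domain receptor Ddr1, a collagen-activated kinase, stood at 438, 426 and 404 TPM and the integrin subunit Itga1 at 76.5, 64.0 and 77.8 TPM. The largest ratio among the 7 tested was that of Mrc2, a receptor that takes up collagen fragments, at 41.0, 51.5 and 51.8 TPM, or 1.30 (1.23 to 1.38) between ATR 3 and ATR 1. Ddr2, the fibroblast counterpart of Ddr1, was likewise lowest in ATR 1, at 13.0, 17.2 and 16.9 TPM. The blood cell receptors Gp6 and Lair1 had at most 0.130 TPM.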

How the data were processed

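Per the labels' protocols, Trizol RNA went through oligo(dT) selection and random priming and was sequenced as paired reads of 150 bases, with no mention of strand marking. The tools listed in the submitters' processing notes are StringTie 2.1.5, HISAT2 2.2.1 and fastp 0.20.1, and the builds are GRCm38 (mouse) and Rnor_6.0 (rat). Which tool made which value is not stated. The authors deposited a TPM value and an estimated count of reads per gene and library, per the file headers. Of the estimated counts the authors deposited, 19.0% to 19.2% per library are not whole within 0.001.

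Estimated counts were rounded and scaled by TMM in edgeR 4.0.16 (R 4.3.3). Genes with at least 30 reads in all entered the chi-square test, which was tested on simulated counts. Apart from seeded changes, those counts held counting error alone, so the simulation does not cover wider spread between libraries. The test counts duplicated reads as independent. Ratios of libraries carry exact (Clopper-Pearson) 95% intervals for counting error only. Size factors of DESeq2 1.42.0, library totals, other minimums and leaving out a library were tried as alternatives. All 41 collagen identifiers were found in a RefSeq gene table of GRCr8. Promoter windows come from RefSeq on GRCr8 and are the sole source of coordinates. Collagens with a mean of at least 10 TPM, and those passing the test, are given by library. Of the processing and receptor lists, the 3 most abundant genes and the one with the largest ratio are named, with a few others. Cell type markers were not named by that rule, and several are named for their pattern across libraries. That collagen genes are the subject, and the classes and lists, were chosen with earlier results of these data known. Col10a1, Col21a1, Col22a1 and Col25a1 are not analysed here. Python 3.11.15, scipy 1.17.1 and matplotlib 3.10.9 were used.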

Additional observations from a re-analysis of the deposited data

How the results depend on the processing

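No paired analysis was possible because a single group, ATR, has values here, and for that reason no alternative planned for ATR against Control was run. The count of 22 collagens that passed the chi-square test was 18 to 22 under the other scalings, read minimums and with whole counts alone, and 15 to 21 with 1 library left out. Of 244 single-gene results under these alternatives, 231 kept their side of the threshold, and the 13 that lost it all did so with a library left out, where fewer libraries were tested. The count of 26 collagens at 1 TPM or more was 21 to 31 under the other levels and in CPM. The collagen share of 0.945% of TPM was 2.60% of assigned reads, which are not divided by length. For the same reason, ratios in reads in place of TPM were 1.44 for Col4a1 to Col4a2, 38.1 for Col4a5 to Col4a6, 0.800 for Col5a1 to Col5a2, 1.18 for Col6a1 to Col6a2, 0.558 for Col6a3 to Col6a1 and 65.3 (from 108) for Col8a1 to Col8a2, and that of Col4a3 to Col4a4 turned from 0.652 to 3.22. The count of 6 collagens differing 2-fold, a measure chosen with its alternatives after seeing the data, was 10 at a minimum of 1 CPM (3.35% of all genes), 3 at 20 CPM (0.554%), and between 2 (without ATR 1) and 5 when a library was left out. Chains with very few reads, such as the collagen IX chains, cannot be ranked at this depth.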
